A study of Homo sapiens with 18 samples.

Results

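A set of 10 genes used as markers of glial, stem-like and mesenchymal glioma cells were followed with and without Erastin in U87MG (labelled U87), a human line derived from a glioblastoma. The 10 genes were NES, VIM, GFAP, SOX2, SOX9, OLIG2, CD44, PROM1, S100B and CHI3L1, chosen by symbol among the 58302 genes of the deposited count table, and each matched 1 row. RNA-seq was performed on 2 libraries of control cells, labelled as normal growth, and on 2 libraries of cells treated with Erastin (10 μM, 72 h). Ferroptosis, an iron-dependent form of cell death driven by lipid peroxidation, is commonly triggered in culture with Erastin. All 4 libraries came from the same cell line, grown with fetal bovine serum, and no other treatment is given in the labels. The labels do not say whether control cells received the solvent. Whether the replicates came from separate cultures is not detailed beyond the word biological, and p-values measure the spread between these libraries. Counts on genes totalled between 29412656 and 31513519 per library, and the same-group libraries lay close to each other, with a biological coefficient of variation of 10.3%.

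Glioblastomas contain cells that resemble astrocytes, oligodendrocyte precursors, neural progenitors or mesenchymal cells, and these states are told apart by the genes they express. GFAP and S100B mark astrocytes, and OLIG2 is a transcription factor of the oligodendrocyte lineage. NES, SOX2, SOX9 and PROM1 mark neural progenitors and stem-like glioma cells. CD44, CHI3L1 and VIM mark the mesenchymal state. In bulk RNA, fewer cells of a kind and less RNA per cell cannot be told apart.

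Erastin-treated cells had lower levels of NES, CHI3L1 and SOX9, by 12.3-fold, 4.79-fold and 2.39-fold. VIM and CD44, the most abundant of the markers, fell by smaller factors of 1.51 and 1.28. GFAP and OLIG2 were weakly expressed and did not pass the test. SOX2, PROM1 and S100B had at most 7 counts in any library and were too low to be tested. Of the 10 genes, 7 passed the filter on low counts, and these 7 also had at least 10 counts in every library. A gene was called lower or higher where edgeR gave an adjusted p under 0.05 and the fold change reached 1 on the log2 scale in either direction. With these thresholds 3 of the 7 tested markers were lower, where 9.34% of all 16751 tested genes were lower and 15.6% were called in either direction. None was called higher by edgeR, where 6.24% of all tested genes were higher. One marker, GFAP, was higher at an unadjusted p under 0.05 in edgeR, and DESeq2 had 0 such markers. Without the threshold on the fold change, 5 of the 7 were lower and 0 higher by edgeR, where 23.7% of all tested genes were lower, 23.2% higher and 47% either. Both Erastin libraries lay below both control libraries for 6 of the 7 genes, where 36.9% of all tested genes did so, and above them for 1, where 36.7% did so. The median log2 fold change of the 7 genes was −0.60, and that of all tested genes was −0.0026.

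**Figure D1:**
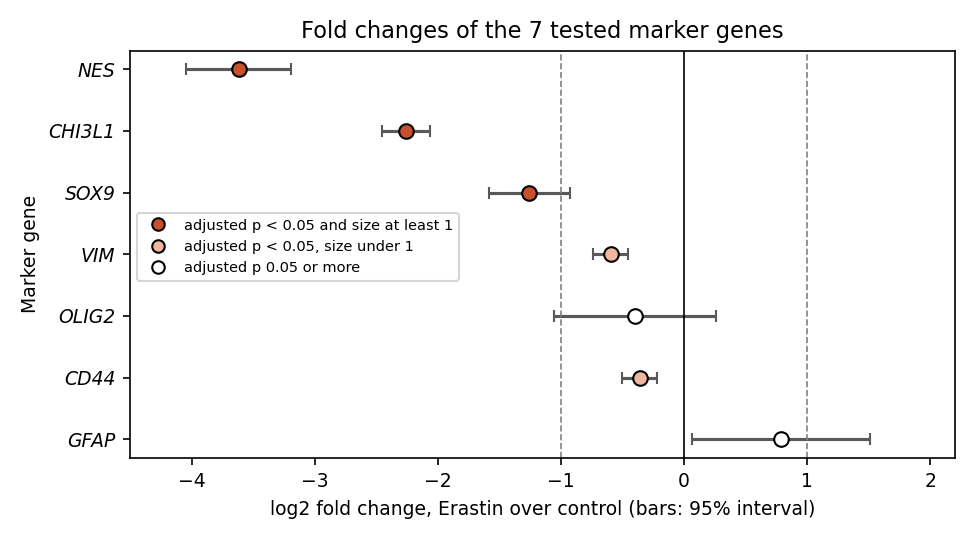
Log2 fold change of each tested marker gene in Erastin-treated over control cells (points) with its 95% interval from edgeR (bars). Dashed lines stand at −1 and 1. Filled points passed an adjusted p of 0.05, dark where the size was also at least 1. NES, CHI3L1 and SOX9 lie to the left of −1, VIM and CD44 between −1 and 0, and the intervals of GFAP and OLIG2 are the widest.

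Levels of different genes were compared as CPM (counts divided by the TMM-scaled library size) divided by the exon length of the gene in kilobases. In control cells VIM had the highest level, 488 ± 8.93 CPM per kilobase (SD, n = 2). CD44 followed with 139.7 ± 0.136 and CHI3L1 with 59.3 ± 7.37 CPM per kilobase (SD, n = 2). NES had 6.57 ± 1.33, SOX9 3.84 ± 0.0853, OLIG2 0.809 ± 0.0706 and GFAP 0.117 ± 0.0108 CPM per kilobase (SD, n = 2). The ranges of neighbours in this order did not overlap in control cells. In Erastin-treated cells VIM, CD44 and CHI3L1 kept the first places, with 323 ± 15.3, 108.8 ± 5.53 and 12.4 ± 0.0389 CPM per kilobase (SD, n = 2). SOX9 came next with 1.61 ± 0.00264 CPM per kilobase (SD, n = 2). NES was then at 0.536 ± 0.135 CPM per kilobase (SD, n = 2), below OLIG2 at 0.614 ± 0.0764 CPM per kilobase (SD, n = 2), and these ranges overlapped. Within each group, the order of the 7 genes did not change when the longest transcript of each gene was used as its length. That length raised the level of GFAP to 0.257 CPM per kilobase in control cells.

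**Figure D2:**
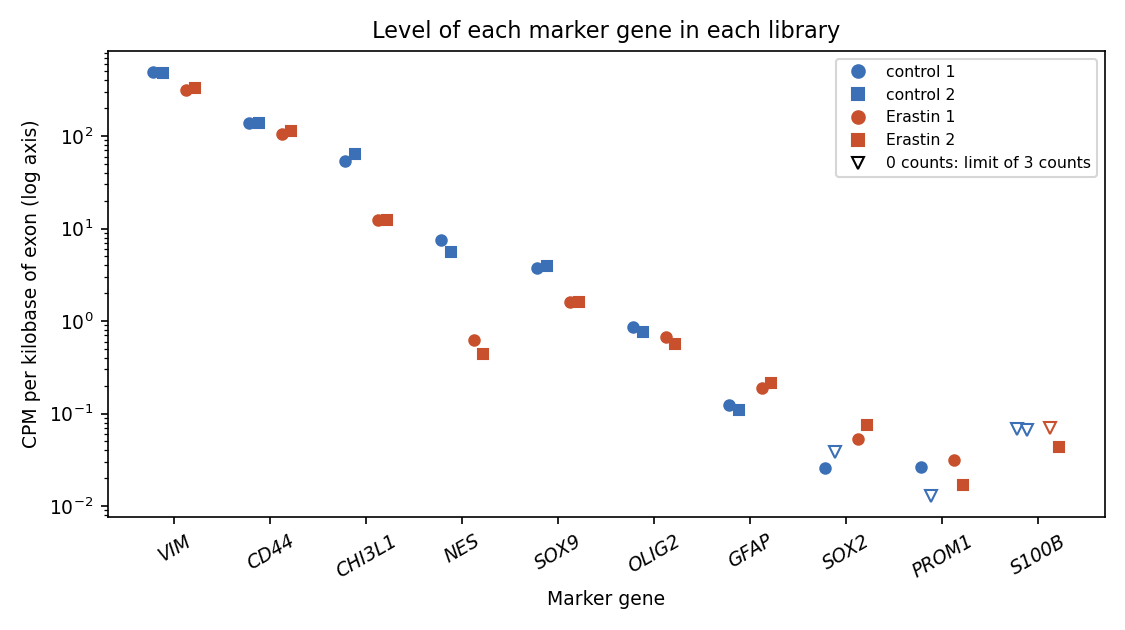
Level of the 10 marker genes in each of the 4 libraries, in CPM per kilobase of exon on a log axis. Circles and squares are replicates 1 and 2, blue for control and red for Erastin, and open triangles show the limit of 3 counts where a library had 0 counts. The genes span from about VIM at 488 to SOX2, PROM1 and S100B near the limit, and NES shows the widest gap between the groups.

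NES (ENSG00000132688) encodes nestin, an intermediate filament protein of neural progenitor cells. It lies on the minus strand of chromosome 1 of GRCh38 from 156668763 to 156677397, and no gene of the annotation overlaps it. Control replicates had 1277 and 972 NES counts, and only 105 and 77 remained after Erastin. The groups were far apart, and control replicate 2 was the lower of the control pair. The mean level fell from 36.5 ± 7.41 to 2.98 ± 0.749 CPM (SD, n = 2 each). On the log2 scale NES changed by −3.62 with a standard error of 0.194 (edgeR, adjusted p = 3.97e-08), and the 95% interval ran from −4.04 to −3.19. Of the 16751 tested genes, 100 had a lower log2 fold change than NES.

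SOX9 (ENSG00000125398), a transcription factor of glial fate and of neural stem cells, lies on chromosome 17 from 72121020 to 72126420. SOX9 counts were 455 and 477 without Erastin and 189 and 199 with it. The replicates of each group were close to each other, and the groups did not overlap. Mean levels were 15.1 ± 0.336 and 6.33 ± 0.0104 CPM (SD, n = 2 each). SOX9 changed by −1.26 on the log2 scale, with a standard error of 0.150 (edgeR, adjusted p = 2.97e-05). Its 95% interval ran from −1.58 to −0.93, and when edgeR's glmTreat tested the change against a log2 fold change of 1 the adjusted p of SOX9 was 0.173. SOX9 thus did not pass that test, whereas NES and CHI3L1 did, with adjusted p of 3.66e-07 and 1.57e-07 from glmTreat. SOX9-AS1, on the opposite strand, shares no exon base with SOX9 and had at most 3 counts in a library.

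The stem cell markers SOX2 and PROM1 were at the limit of what this depth can show. SOX2 (ENSG00000181449) encodes a transcription factor that keeps neural stem cells undifferentiated. Its counts were 2 and 0 in control cells and 4 and 6 with Erastin, so that both treated libraries were above both controls. PROM1 (ENSG00000007062), which encodes the surface protein CD133, was counted 6 and 0 times without Erastin and 7 and 4 times with it, and its groups overlapped. The exact Poisson 95% intervals of single libraries overlapped between the groups for both genes. For a count of 0 in the second control library this interval reached up to 3.69 counts. The limit of 3 counts drawn in the figure of levels is a separate, lower one, and equals 0.0966 CPM in that library. Such intervals and limits cover counting error only, and they treat every read as independent. Reads of a pair were counted separately, so the intervals can be too narrow even for that error. SOX2-OT, a noncoding gene that spans SOX2 on the same strand without sharing an exon base, had between 5 and 10 counts per library. FGFBP2 shares 166 exon bases with PROM1, where reads could not be assigned, and had 0 counts in every library. Neither a change nor its absence was detectable for SOX2 or PROM1 at this depth.

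CHI3L1 (ENSG00000133048) encodes YKL-40, a secreted glycoprotein of mesenchymal glioblastoma and of reactive astrocytes. It lies on the minus strand of chromosome 1 from 203178931 to 203186749, with no overlapping gene. Control replicates gave 5639 and 6833 CHI3L1 counts and treated replicates 1266 and 1324. Both Erastin libraries lay far below both control libraries, and the larger spread was that of the control group. The mean dropped from 202 ± 25.1 to 42.2 ± 0.133 CPM (SD, n = 2 each). This was a change of −2.26 on the log2 scale with a standard error of 0.0901 (edgeR, adjusted p = 3.51e-09), and 430 tested genes had a lower value.

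CD44 (ENSG00000026508), the receptor of hyaluronan, lies on chromosome 11 from 35138870 to 35232402. Without Erastin 42924 and 43669 reads were counted on CD44, and with it 31559 and 35625. The groups did not overlap, but the difference was small. Its level was 1405 ± 1.37 CPM without and 1094 ± 55.7 CPM with Erastin (SD, n = 2 each). CD44 changed by −0.36 on the log2 scale with a standard error of 0.0640 (edgeR, adjusted p = 0.000644), which was below the threshold on the fold change. CD44-AS1, on the opposite strand, shares 84 exon bases with CD44, and reads there could not be assigned. CD44-AS1 itself was counted 27 and 46 times in control cells and 10 and 14 times with Erastin. Counts on the whole gene do not separate the splice forms of CD44.

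VIM (ENSG00000026025) encodes vimentin, the intermediate filament protein of mesenchymal cells and immature astrocytes. It lies on chromosome 10 from 17228259 to 17237593. VIM took 77887 and 77105 counts in control cells, or 0.247% of all counts in each, and 48117 and 54053 with Erastin, or 0.164% and 0.175%. Both Erastin libraries were lower than both control libraries. Its mean fell from 2515 ± 46.1 to 1664 ± 78.9 CPM (SD, n = 2 each). VIM changed by −0.60 on the log2 scale with a standard error of 0.0638 (edgeR, adjusted p = 1.27e-05), also below the threshold on the fold change. VIM-AS1 shares 641 exon bases with VIM on the opposite strand and had between 185 and 327 counts per library, and ENSG00000234961, which shares 619, had 0. Reads on the shared bases could not be assigned.

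GFAP (ENSG00000131095) encodes the intermediate filament protein of mature astrocytes and lies on chromosome 17 from 44903161 to 44916937. Its counts were 46 and 41 in control cells and 69 and 81 with Erastin. The treated pair stood above the control pair, at 2.44 ± 0.192 against 1.41 ± 0.131 CPM (SD, n = 2 each). GFAP differed by 0.79 on the log2 scale with a standard error of 0.330. Its adjusted p was 0.0696 with edgeR, and over the alternatives it lay between 0.0532 and 0.211. The 95% interval of the log2 fold change ran from 0.07 to 1.51. GFAP shares 2230 exon bases with CCDC103 and with FAM187A on the opposite strand, which had 1 count and 0 counts over the 4 libraries. Reads on the shared bases could not be assigned, so they are missing from the counts of GFAP.

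OLIG2 (ENSG00000205927) lies on chromosome 21 from 33025845 to 33029196. OLIG2 was counted 88 and 79 times without Erastin and 67 and 59 times with it. The groups did not overlap but were close, at 2.71 ± 0.237 and 2.06 ± 0.256 CPM (SD, n = 2 each). OLIG2 differed by −0.40 on the log2 scale with a standard error of 0.299 (edgeR, adjusted p = 0.305), and its 95% interval ran from −1.05 to 0.26. S100B (ENSG00000160307), which encodes a calcium-binding protein of astrocytes, had 0 counts in 3 libraries and 2 in Erastin replicate 2.

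**Figure D3:**
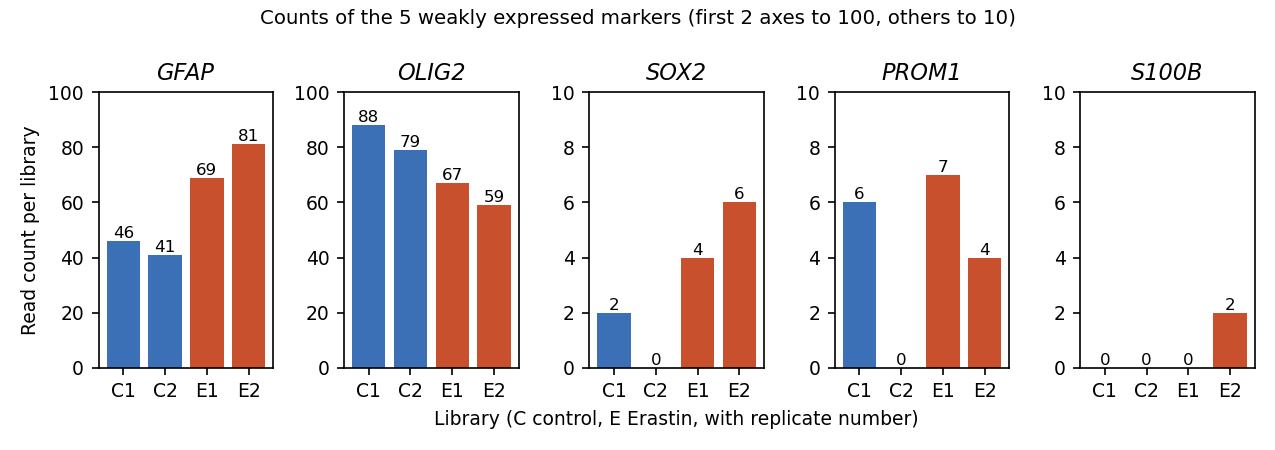
Read counts of GFAP, OLIG2, SOX2, PROM1 and S100B in each library, from control 1 (C1) to Erastin 2 (E2). The axes of GFAP and OLIG2 end at 100 and the others at 10. GFAP runs from 41 to 81 counts and OLIG2 from 59 to 88, whereas the other genes have 7 counts or fewer.

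The markers include 3 intermediate filament genes. Per exon length, VIM exceeded NES by factors of 65.7 and 85.5 without Erastin and 494 and 756 with it. The ratio of VIM to GFAP was 3975 and 4415 without Erastin and 1637 and 1567 with it. Among the mesenchymal markers, CD44 exceeded CHI3L1 by factors of 2.58 and 2.17 in control cells and 8.45 and 9.12 with Erastin. The ratio of VIM to CD44 was 3.54 and 3.44 in control cells and 2.97 and 2.96 with Erastin. These ratios are a description, and their differences between the groups were not tested. Their size depends on the length used. In control cells, exon length gave 488 CPM per kilobase for VIM and 6.57 for NES. The longest transcript as length gave 943 for VIM and 6.56 for NES.

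Promoter windows, from 250 bases before to 50 bases after the start site, were taken from RefSeq (GRCh38.p14), which held windows for 6 of the 10 genes (NES, CHI3L1, VIM, CD44, SOX2 and PROM1). Windows of the markers with the largest falls, NES and CHI3L1, and of the most abundant ones, VIM and CD44, are shown to set strongly and weakly changed markers side by side. They lie at chr1:156677358-156677657 (minus strand), chr1:203186655-203186954 (minus strand), chr10:17227991-17228290 (plus strand) and chr11:35138921-35139220 (plus strand). Capitals mark the GC box GGGCGG or its reverse complement CCGCCC and the TATA box TATAAA or its reverse complement TTTATA.
NES: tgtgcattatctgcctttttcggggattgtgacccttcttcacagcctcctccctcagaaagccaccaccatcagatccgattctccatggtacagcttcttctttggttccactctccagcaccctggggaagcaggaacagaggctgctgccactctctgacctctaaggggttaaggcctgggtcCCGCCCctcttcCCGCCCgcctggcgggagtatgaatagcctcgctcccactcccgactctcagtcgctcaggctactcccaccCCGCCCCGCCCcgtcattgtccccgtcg
CHI3L1: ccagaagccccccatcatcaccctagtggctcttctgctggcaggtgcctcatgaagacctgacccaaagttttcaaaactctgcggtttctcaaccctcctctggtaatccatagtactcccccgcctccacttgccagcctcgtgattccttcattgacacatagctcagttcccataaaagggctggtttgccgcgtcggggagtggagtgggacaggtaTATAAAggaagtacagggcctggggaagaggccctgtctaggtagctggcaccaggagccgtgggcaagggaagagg
VIM: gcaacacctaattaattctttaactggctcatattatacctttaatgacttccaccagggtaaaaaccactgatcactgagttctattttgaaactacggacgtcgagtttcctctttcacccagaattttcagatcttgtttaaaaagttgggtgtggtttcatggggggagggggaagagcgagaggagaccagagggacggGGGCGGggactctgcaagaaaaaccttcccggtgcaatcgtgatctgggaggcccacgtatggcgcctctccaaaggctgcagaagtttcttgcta
CD44: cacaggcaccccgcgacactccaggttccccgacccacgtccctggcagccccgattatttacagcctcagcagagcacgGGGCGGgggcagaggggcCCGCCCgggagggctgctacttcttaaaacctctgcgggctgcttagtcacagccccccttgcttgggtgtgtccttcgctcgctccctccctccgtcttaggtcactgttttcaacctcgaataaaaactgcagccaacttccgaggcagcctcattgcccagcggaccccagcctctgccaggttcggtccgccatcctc
The window of NES held 4 GC boxes, 2 of them sharing a base, that of VIM 1 and that of CD44 2. A GC box occurs in 45.0% of the 35116 windows of this length in the table. The window of CHI3L1 held no GC box but a TATA box, with 21 bases between it and the start site, and 11.5% of all windows hold a TATA box. The CCAAT box (CCAAT or ATTGG, in 34.6% of windows), the AP-1 site TGANTCA (7.71%) and the E-box CACGTG (7.26%) were also searched on both strands and did not occur in these 4 windows. GC content was 60.3% for NES, 56.0% for CHI3L1, 48.0% for VIM and 63.3% for CD44, where the median of all windows was 58.7%. A match describes letters only and is not evidence of binding.

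For each called marker, the 3 genes with the most similar pattern over the 4 libraries were found by the root mean square difference of log2 CPM, each gene centred on its own mean, among 9507 genes with at least 10 CPM on average (pseudocount 2). For NES these were FOXC2, FPR1 and SPC24, with differences of 0.150, 0.168 and 0.169. FOXC2 encodes a transcription factor, FPR1 a receptor of formylated peptides and SPC24 a kinetochore protein. For CHI3L1 they were ORC1, BRIP1 and CDC45, with 0.0505, 0.0590 and 0.0663. ORC1 and CDC45 act in DNA replication and BRIP1 is a helicase of DNA repair. For SOX9 they were BHLHE41, CDCA7L and MBOAT2, with 0.0209, 0.0211 and 0.0217. BHLHE41 encodes a transcription factor of the circadian clock and MBOAT2 a lysophospholipid acyltransferase. ORC1, with 483 and 560 counts in control cells and 97 and 105 with Erastin, changed by −2.36 on the log2 scale beside the −2.26 of CHI3L1. With 4 libraries in 2 groups, likeness mostly reflects a fold change of like size.

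Other genes of the same cell states were counted from lists written from general knowledge, but with earlier results of these data known. Over all lists, 89 of 144 genes other than the markers themselves could be tested, with 20 called lower and 8 higher, where 9.34% of all tested genes were lower and 6.24% higher. Of the 8, ESRP1, SOX7, HES1 and VWF passed the low-count filter through the Erastin libraries only. Of the 20, SALL2 and NDRG2 passed it through the control libraries only. TMEM119, with 24 and 6 counts in the Erastin libraries, could not have passed it through those alone. With at least 10 counts required in every library, 79 were tested, with 18 lower and 4 higher. SALL2, NDRG2 and TMEM119 were not among the 79. Of all 14579 genes tested then, 1341 were lower and 791 higher. The 8 became 3 without Erastin replicate 2 and 5 without control replicate 2. Among the astrocyte genes, 12 of 16 were tested, 4 were called lower, where 9.34% of all tested genes were, and the median log2 fold change was −0.40. At any size, 6 of these astrocyte genes were lower and 1, GLUL, was higher, where 23.7% and 23.2% of all tested genes were. SLC1A3, a glial glutamate transporter, went from 56.2 ± 0.996 to 10.3 ± 0.0789 CPM (SD, n = 2 each), or by −2.45 on the log2 scale (edgeR, adjusted p = 5.34e-09). GJA1, which encodes the gap junction protein connexin 43, and NFIA, a transcription factor of astrocyte development, fell by 1.48 and 1.22 on the log2 scale (edgeR, adjusted p = 1.02e-08 and 0.000322). The remaining one was NDRG2, with 22 and 33 counts in control cells and 6 and 4 with Erastin. The water channel gene AQP4 and HEPACAM, which encodes a glial adhesion protein, had 0 counts in every library.

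Of the neural progenitor and glioma stem cell genes, 12 of 19 were tested beside the markers, with a median of 0.09. Of these, 2 were called lower and 2 higher, where 9.34% and 6.24% of all tested genes were. At any size, 5 were lower and 5 higher, where 23.7% and 23.2% of all tested genes were. SOX4, a transcription factor of neural progenitors, went from 323 and 224 counts to 71 and 83, or by −1.82 on the log2 scale (edgeR, adjusted p = 6.80e-05). POU3F2, a transcription factor of neural cells, rose from 72 and 55 counts to 112 and 155, or by 1.07 on the log2 scale (edgeR, adjusted p = 0.00901). The other called genes were weakly expressed. SALL2 had 23 and 15 counts in control cells and 2 and 2 with Erastin, and HES1, a target of Notch signalling, had 5 and 2 in control cells and 16 and 19 with Erastin. MSI1 and NANOG had 0 counts in every library.

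All 20 mesenchymal glioblastoma genes beside the markers were tested, with a median of 0.23. Of these, 1 was called lower and 2 higher, where 9.34% and 6.24% of all tested genes were. At any size, 10 of these genes were higher and 6 lower, where 23.2% of all tested genes were higher and 23.7% lower. TNC, which encodes the matrix protein tenascin C, went from 2443 ± 41.7 to 755 ± 17.5 CPM (SD, n = 2 each), or by −1.69 on the log2 scale (edgeR, adjusted p = 1.93e-09). BHLHE40, a transcription factor named among regulators of the mesenchymal state, rose by 1.44 on the log2 scale, and SPP1, the gene of osteopontin, a ligand of CD44, rose by 1.06 (edgeR, adjusted p = 8.23e-09 and 6.63e-07). Of the intermediate filament list, 4 of 12 genes beside the markers were tested. NEFM, the medium neurofilament chain, was the 1 called lower, from 125 and 124 counts to 17 and 39.

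**Figure D4:**
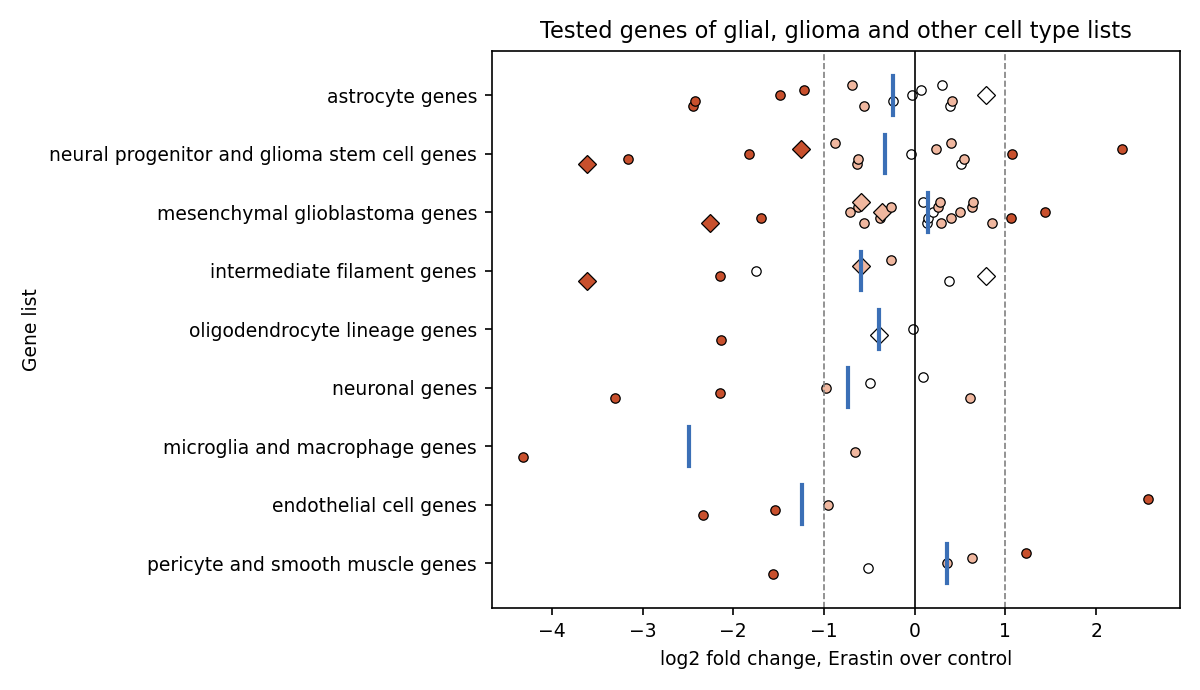
Log2 fold change of each tested gene in 9 lists. Diamonds are the marker genes and circles the other list genes, dark where called, pale where the adjusted p was under 0.05 without the fold threshold, and white otherwise. Blue bars are list medians with the markers included, and dashed lines stand at −1 and 1. The mesenchymal genes lie on both sides of 0, and most called genes of the other lists lie to the left of −1.

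Markers of other cell types were counted in the same way, since the labels name brain as the tissue. Of all tested genes, 9.34% were called lower and 6.24% higher. Of 13 oligodendrocyte lineage genes, 3 were tested, and OLIG1, SOX10, NKX2-2, MOG and MOBP had 0 counts in every library. CSPG4, the gene of the proteoglycan NG2, went from 227 ± 32.2 to 51.7 ± 1.63 CPM (SD, n = 2 each), or by −2.13 on the log2 scale (edgeR, adjusted p = 8.32e-09). CNP was not called, at 85.4 ± 15.8 CPM in control cells and 84.0 ± 2.72 CPM with Erastin (SD, n = 2 each). The summed level of that list was between 283 and 350 CPM in control and between 137 and 139 CPM in Erastin libraries. Of 14 neuronal genes, 6 were tested and 2 were called lower, SNAP25 by −3.31 and NEFM by −2.15 on the log2 scale (edgeR, adjusted p = 1.45e-08 and 0.000532). At any size 3 were lower and 1 higher, where 23.7% and 23.2% of all tested genes were. The higher one was MAP2, which rose by 0.61 on the log2 scale (edgeR, adjusted p = 0.000194). The sum of the 14 genes was between 115 and 117 CPM in control and between 90.2 and 106.7 CPM in Erastin libraries. Of 10 microglia and macrophage genes, 2 were tested, AIF1 and TYROBP had 0 counts in every library, and TMEM119 was lower, with 250 and 360 counts in control cells and 24 and 6 with Erastin. The sum was between 17.1 and 20.1 CPM in control and between 6.40 and 6.55 CPM in Erastin libraries. Of 8 endothelial genes, 4 were tested, with PECAM1 and TEK lower, VWF higher at 4 and 4 against 17 and 32 counts, and CLDN5 at 0 in every library. The sum was between 19.4 and 23.6 CPM in control and between 8.29 and 9.77 CPM in Erastin libraries. Of 8 pericyte and smooth muscle genes, 5 were tested, with PDGFRB lower and ACTA2 higher. MCAM, below the threshold on the fold change, went from 253 to 323 CPM, and made up most of the sum of this list. The sum was between 323 and 328 CPM in control and between 374 and 385 CPM in Erastin libraries. All 4 libraries came from the same cell line, so counts of these genes do not show that cells of such types were present. Whether these genes bear on the fall of NES, CHI3L1 and SOX9 was not tested.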

How the data were processed

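RNA-seq of U87MG cells was analysed for 2 control and 2 Erastin-treated libraries. The authors deposited raw read counts per gene for each library, together with the exon length of each gene. Per the file header they were made with featureCounts 2.0.3 and the Ensembl release 90 annotation of GRCh38, without strand, counting the reads of a pair separately and leaving out reads on more than 1 place or gene. The submitters' processing notes name HISAT2 2.1.0 and featureCounts 2.0.4, and the methods name htseq-count. Symbols were joined by Ensembl identifier, and transcript lengths came from GENCODE release 44.

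Genes were filtered with filterByExpr (minimum count 10), scaled by TMM and tested with the quasi-likelihood test of edgeR 4.0.16 in R 4.3.3, with Benjamini-Hochberg adjustment over 16751 genes. Standard errors and intervals came from the F statistic. DESeq2 1.42.0 and other settings were alternatives. The methods were tested on simulated data. Of each list, called genes with at least 1 CPM on average were named, up to 4 in each direction. GLUL, NDRG2, SALL2, HES1, VWF, SOX7, EZR, ESRP1, MAP2, MCAM, CNP and genes at 0 were named after their values were seen. The marker genes and lists were chosen with earlier results of these data known. ChIP-seq and HiChIP were not analysed here.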

Additional observations from a re-analysis of the deposited data

How the results depend on the processing

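All 7 tested marker genes kept their direction and their side of an adjusted p of 0.05 in each of the 11 alternatives that gave a fold change. With all 4 libraries kept, the log2 fold change lay between −3.62 and −3.56 for NES, −2.26 and −2.21 for CHI3L1 and −1.26 and −1.21 for SOX9. With each library left out in turn it lay between −3.90 and −3.38 for NES, −2.38 and −2.13 for CHI3L1, −1.28 and −1.24 for SOX9, −0.64 and −0.55 for VIM, −0.41 and −0.31 for CD44, −0.53 and −0.27 for OLIG2 and 0.69 and 0.88 for GFAP. The count of 3 lower markers became 2 with glmTreat, without SOX9. With the replicate number as a block it was 3, and the block changed no call of a marker, although the labels do not say that same-numbered libraries were paired and their deviations had a correlation of 0.0338 across genes. Scaling by library totals moved the median of all genes to 0.0471.

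Of the related list genes, 20 were lower and 8 higher. glmTreat, which tests a stricter hypothesis, gave 13 and 3. The higher count became 4 with at least 10 counts in every library and 5 with counts divided by 2 and rounded up, both of which test fewer genes. Leaving out one library at a time, the lower count lay between 18 and 20 and the higher count between 3 and 7. It was 5 without control replicate 2 and 3 without Erastin replicate 2, and the cause was not tested. With the longest transcript as length, VIM, CD44 and CHI3L1 had 943, 259 and 105 CPM per kilobase in control cells. Depth limited SOX2, PROM1 and S100B most.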

Other observations

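Of 17 SOX family genes, 8 were tested, and SOX1, SOX3, SOX8, SOX10, SOX11, SOX18 and SOX21 had 0 counts in every library. SOX5 went from 541 and 563 counts in control cells to 83 and 124 with Erastin, or by −2.41 on the log2 scale with a standard error of 0.187 (edgeR, adjusted p = 8.47e-07). SOX4 and SOX9 were the other genes of the family called lower. SOX7 was called higher, with 2 and 1 counts in control cells and 20 and 28 with Erastin, and passed the low-count filter through the Erastin libraries only. With the markers aside, 2 of 7 tested SOX genes were lower and 1 higher, where 9.34% and 6.24% of all tested genes were.

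Of 17 genes listed as ligands and partners of CD44, all were tested, with 5 called lower and 1 higher, where 9.34% of all tested genes were lower and 6.24% higher. Their median log2 fold change was −0.46, and that of all tested genes was −0.0026. SPP1, named above as a ligand of CD44 and called higher by 1.06 on the log2 scale, was not on this list. HMMR, another hyaluronan receptor that is also a spindle protein, went from 57.8 ± 1.77 to 4.12 ± 1.37 CPM (SD, n = 2 each), or by −3.81 on the log2 scale (edgeR, adjusted p = 9.26e-09). LAYN, which encodes the hyaluronan receptor layilin, VCAN, the hyaluronan-binding proteoglycan versican, and HAS2, a hyaluronan synthase, changed by −1.36, −1.15 and −1.11 on the log2 scale (edgeR, adjusted p = 1.16e-06, 6.79e-08 and 0.00185). EZR, the gene of ezrin, which links CD44 to actin, changed by −1.03. The 1 higher gene on this list, ESRP1, a splicing regulator, had 0 counts in both control replicates and 10 and 15 with Erastin.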
